A study of Mus musculus with 6 samples.

Results

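The fibroblast growth factors (FGFs), their receptors and the cofactors of their signalling were followed here in sorted embryonic fibroblasts. The genes were taken by name: every gene called Fgf with a number, Fgfr1 to Fgfr4, and Fgfrl1, Fgfbp1, Fgfbp3, Kl, Klb, Frs2 and Frs3. Of these, 32 had a probe set that lists the gene alone, out of 22180 genes tested, and Frs2 was not analysed here. Where a gene had several probe sets (Fgf10 and Fgf15), the one with the highest mean over the 6 arrays was used.

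The cells came from the body wall on the back of E14.5 mouse embryos of strain 129SV, heterozygous for a green fluorescent protein (GFP) allele of Ebf2, so that each group carried the reporter allele. They were dissociated with collagenase and dispase and sorted with an antibody to the growth factor receptor PDGFRα, which mesenchymal cells carry. The PDGFRα+ cells were divided into Ebf2(GFP)+ cells (3 arrays) and Ebf2(GFP)- cells (3 arrays), called GFP-positive and GFP-negative below, with no other treatment. The series names Ebf2 as a marker of precursors of brown and beige fat, and the comparison asked how the cells that carry it differ from other PDGFRα+ cells of the same tissue. How many embryos or litters stand behind a sample is not given in the labels. The p-values therefore cover the spread among these 6 samples alone, and that spread may be technical.

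FGFs are secreted proteins that bind heparan sulfate on the cell surface and activate receptor tyrosine kinases, which signal through the adaptor FRS2 to the RAS and MAP kinase cascade. The ligands fall into subfamilies by sequence. Most act over short distances, the endocrine FGFs act through the blood with klotho proteins as coreceptors, and the members of the FGF11 group stay inside the cell, where they bind voltage-gated sodium channels. In embryonic mesenchyme the pathway is best known for its part in limb outgrowth, skeletal growth, and the exchange of signals with epithelium.

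Among the genes whose level differed between the groups, the starts of those with a promoter in the RefSeq table can be shown, to give the sequence context of the FGF genes that rose and of the receptors that fell. The lines below give the 250 bases before the start of Fgf18 and Fgf5, which rose, and of Fgfr3 and Fgfr2, which fell, 5′ to 3′ on the gene's own strand in build GRCm38.p6. The windows are chr11:33147401-33147650 (minus strand), chr5:98253934-98254183 (plus strand), chr5:33721474-33721723 (plus strand, the first of the starts listed for Fgfr3) and chr7:130266809-130267058 (minus strand). Capitals mark the CCAAT box, spelled CCAAT, or the GC box, spelled GGGCGG, on either strand.
Fgf18: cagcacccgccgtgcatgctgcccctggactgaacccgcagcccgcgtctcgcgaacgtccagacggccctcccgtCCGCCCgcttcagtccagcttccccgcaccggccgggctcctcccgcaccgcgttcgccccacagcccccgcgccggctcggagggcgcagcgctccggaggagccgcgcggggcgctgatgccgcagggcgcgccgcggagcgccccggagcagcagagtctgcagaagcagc
Fgf5: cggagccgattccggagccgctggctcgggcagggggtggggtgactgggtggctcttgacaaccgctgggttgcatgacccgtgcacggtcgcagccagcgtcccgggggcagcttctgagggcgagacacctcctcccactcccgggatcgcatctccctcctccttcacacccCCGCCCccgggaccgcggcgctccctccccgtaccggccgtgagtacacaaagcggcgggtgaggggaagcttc
Fgfr3: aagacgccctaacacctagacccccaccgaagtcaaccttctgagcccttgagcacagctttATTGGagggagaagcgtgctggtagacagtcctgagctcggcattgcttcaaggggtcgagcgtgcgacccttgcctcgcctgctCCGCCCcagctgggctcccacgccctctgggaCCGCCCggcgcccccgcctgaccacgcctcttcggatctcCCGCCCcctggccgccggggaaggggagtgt
Fgfr2: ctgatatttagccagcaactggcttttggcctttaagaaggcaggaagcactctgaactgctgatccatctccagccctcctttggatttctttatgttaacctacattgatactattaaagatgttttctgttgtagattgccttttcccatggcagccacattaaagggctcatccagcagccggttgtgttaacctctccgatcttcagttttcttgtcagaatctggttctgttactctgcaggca
The windows of Fgf18, Fgf5 and Fgfr3 were GC-rich, with 77.2%, 70.8% and 66.8% of bases G or C, and that of Fgfr2 held 44.0%, where the median over all 32851 windows of the table was 52.4%. Of the 25 FGF genes with an entry in that table, 6 were among those that changed. The TATA box, spelled TATAAA, was searched in the same way and was in none of the windows shown. Of all windows, 12.4% held TATAAA, 33.8% held CCAAT and 32.7% held GGGCGG. A match of letters describes the sequence and shows no binding.

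The sort was visible in the data. Ebf2 was at log2 11.93 to 12.04 on the GFP-positive arrays and at 8.16 to 9.21 on the GFP-negative arrays. Pdgfra, selected for in each group, lay between 12.90 and 13.24 on all arrays, and the log2 change of 0.19 did not pass (adjusted p = 0.178). Pdgfrb, another receptor gene of mesenchyme, changed by −0.26 (adjusted p = 0.177). Values are on the log2 scale, on which 1 unit is a doubling. A gene passed when its limma p, adjusted by the method of Benjamini and Hochberg over all 22180 genes, was under 0.05, and 6.49% of all genes passed (2.65% higher and 3.84% lower in GFP-positive cells). The arrays give no detection calls, so genes with a mean under log2 6.78, the 40th percentile of all gene means, are called dim, and this level is the dim mark.

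The secreted ligands that rose in GFP-positive cells were Fgf16, Fgf18, Fgf1 and Fgf5 (4 of 18, or 22.2%, beside 2.65% of all genes). No secreted ligand fell, which in a list of 18 is not far from the 3.84% of all genes that did. The receptor genes Fgfr3 and Fgfr2 fell, as did the intracellular FGF gene Fgf14 and the carrier gene Fgfbp1. This makes 4 higher and 4 lower of 32 FGF genes (25.0%, beside 6.49% of all genes). The median change of the 32 genes was −0.08, beside 0.02 for all genes, and the median size of a change was 0.17, beside 0.08. Of the 21 FGF genes above the dim mark 6 passed (28.6%, beside 9.75% of all genes above it), and of the 11 below it 2 did (18.2%, beside 1.59%). The 3 arrays of one group lay wholly above or below those of the other for 13 FGF genes, 6 higher and 7 lower (40.6%, beside 22.0% of all genes, 12.3% higher and 9.78% lower). Fgf16, Fgfr3 and Fgfr2 passed with a change of at least 2-fold (3 of 32, beside 1.74% of all genes). With the replicate number as a block 10 FGF genes passed (31.2%, beside 10.0% of all genes). Fgf16, Fgf18, Fgf1, Fgfr3 and Fgfr2 passed in every fit tried. The count of passing FGF genes fell to 5 without GFP-negative replicate 1 or 3 or GFP-positive replicate 1 or 3, to 6 without GFP-positive replicate 2 and to 7 without GFP-negative replicate 2, and the share of all genes then lay between 2.84% and 4.81%.

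**Figure D1:**
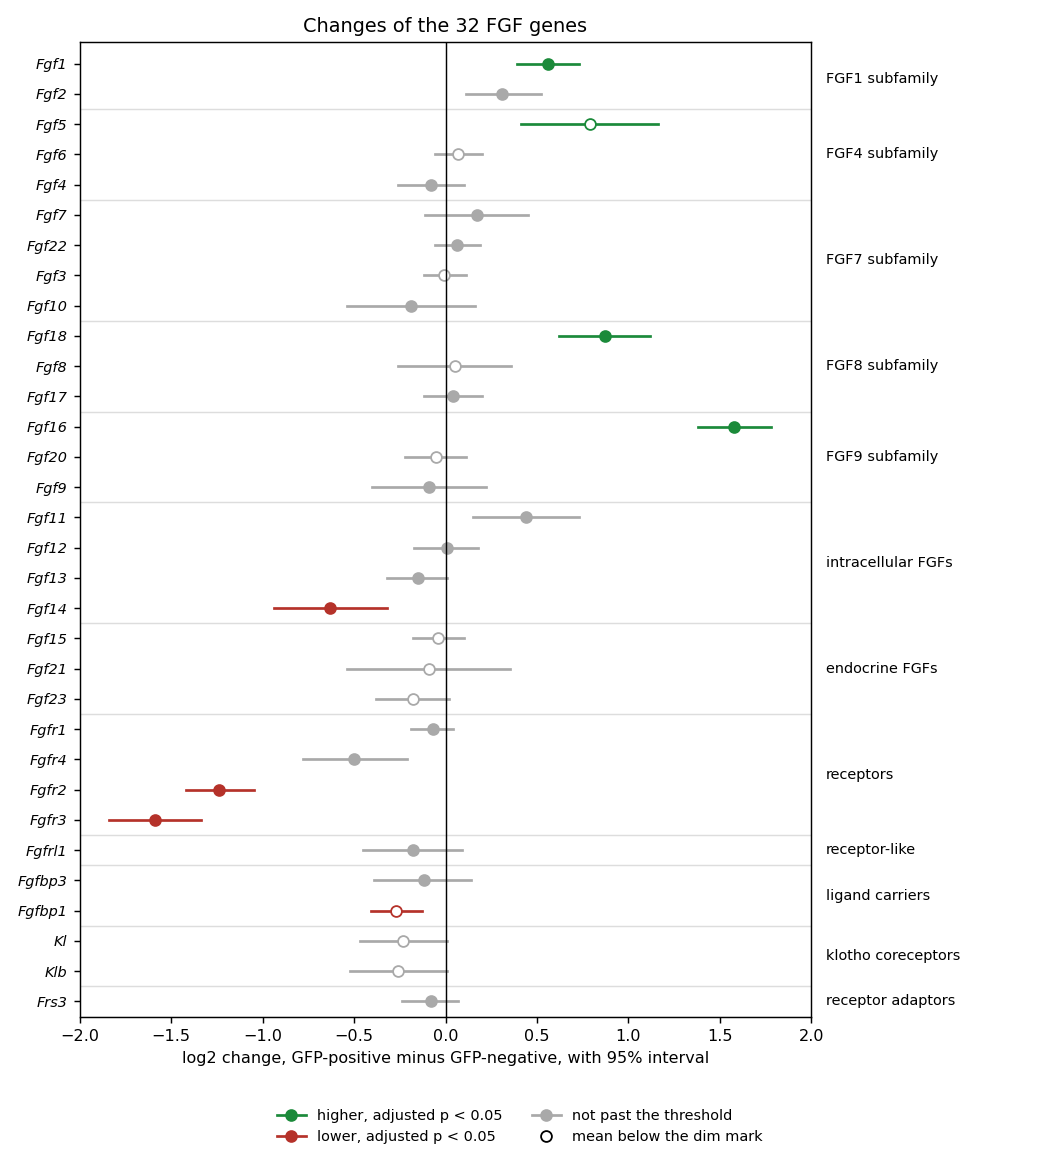
Log2 change (GFP-positive minus GFP-negative) of each of the 32 FGF genes with its 95% interval from limma, grouped by subfamily or role. Fgf16 stands farthest to the right at 1.58 and Fgfr3 farthest to the left at −1.59, and open points mark genes whose mean lies below the dim mark.

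Fgf16 showed the largest rise of the FGF genes. It belongs with Fgf9 and Fgf20 and is known from the heart and from embryonic brown fat of the rat. The GFP-negative arrays read 8.43, 8.27 and 8.42 in replicates 1, 2 and 3, and the GFP-positive arrays 9.83, 9.93 and 10.10. All GFP-positive arrays thus lay well above all GFP-negative ones. The means were 8.37 ± 0.088 (SD, n = 3) and 9.95 ± 0.134 (SD, n = 3), a 2.99-fold rise (log2 change 1.58 ± 0.09 SE, adjusted p = 0.00039), with changes of 1.51 to 1.64 when 1 array was left out.

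Fgf18, a ligand of the Fgf8 group that acts in cartilage and bone growth, was already high in GFP-negative cells and higher still in GFP-positive cells. It was at 10.41, 10.29 and 10.63 on the GFP-negative arrays and at 11.26, 11.24 and 11.46 on the GFP-positive arrays. The groups did not overlap, and replicate 3 was the highest of each. The means of 10.45 ± 0.173 (SD, n = 3) and 11.32 ± 0.122 (SD, n = 3) differed by 0.87 ± 0.10 SE on the log2 scale, a 1.83-fold rise (adjusted p = 0.00549).

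Fgf1, the acidic FGF, which lacks a classical signal peptide and binds all the receptors, rose 1.47-fold. The GFP-negative arrays read 8.15, 8.31 and 8.35, and the GFP-positive arrays 8.79, 8.79 and 8.89. The GFP-positive arrays lay close together above the GFP-negative ones, with a log2 change of 0.56 ± 0.07 SE (adjusted p = 0.00717). Fgf2, the basic FGF and the other member of this subfamily, was at 8.33, 8.27 and 8.04 against 8.49, 8.53 and 8.57. Its arrays also did not overlap, but the log2 change of 0.31 ± 0.08 SE did not pass (adjusted p = 0.0898, 95% interval 0.11 to 0.52).

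Fgf5, known as a regulator of the hair cycle, rose from a dim level. The GFP-negative arrays were at 6.20, 6.20 and 6.12, below the dim mark, and the GFP-positive arrays at 7.10, 6.58 and 7.20. GFP-positive replicate 2 was the lowest of its group, below the mark, and still above all GFP-negative arrays. The log2 change was 0.79 ± 0.16 SE, or 1.72-fold (adjusted p = 0.0346), and since the GFP-negative mean is dim the fold may be understated. The call ended when any 1 array other than GFP-positive replicate 2 was left out (adjusted p of 0.096 to 0.138) and with array weights (0.0541). Without GFP-positive replicate 2 the adjusted p was 0.00549.

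**Figure D2:**
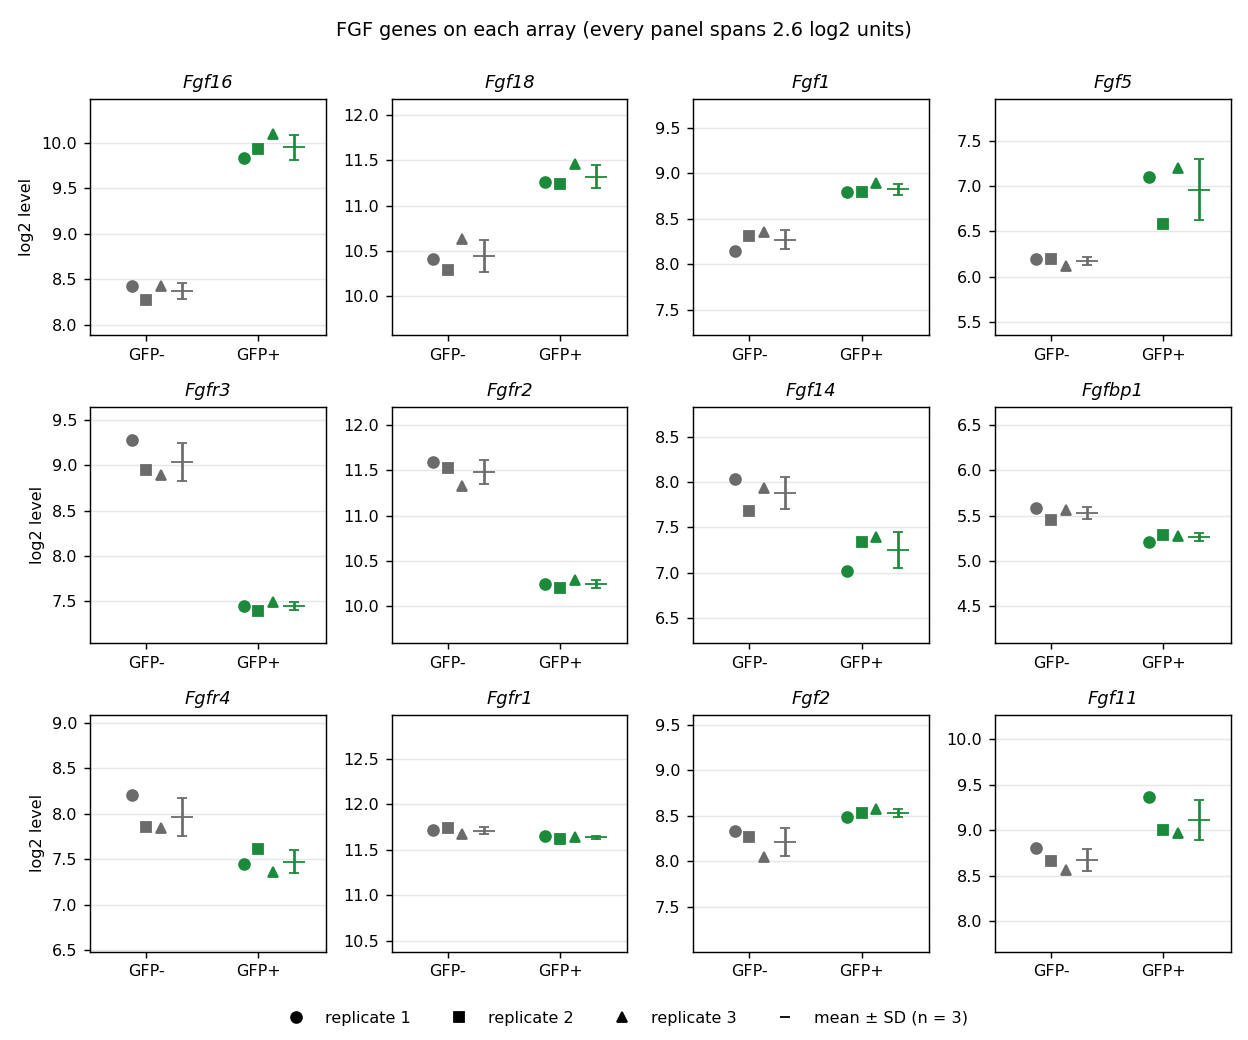
Log2 level of 12 FGF genes on each array, with replicates by symbol and the mean ± SD of the 3 arrays of a group beside them. The 8 genes of the upper rows passed the test, and Fgfr1 in the bottom row lies between 11.62 and 11.74 on all arrays.

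The other secreted ligands gave no call, and their changes were small. Of 18 secreted ligands measured, 14 did not pass. In the Fgf7 subfamily, some of whose members signal from mesenchyme to epithelium, none of 4 passed, beside 6.49% of all genes. Fgf7, keratinocyte growth factor, was at 10.06, 10.07 and 10.12 against 10.19, 10.05 and 10.51. The highest value was that of GFP-positive replicate 3, and the groups overlapped (log2 change 0.17 ± 0.12 SE, adjusted p = 0.553). Fgf10, which drives limb and lung budding and has been studied in fat cell precursors, was at 8.94, 9.00 and 8.66 against 8.60, 8.47 and 8.96, again with overlap. Its log2 change was −0.19 ± 0.15 SE (adjusted p = 0.60), and the other probe set of Fgf10 changed by 0.01 ± 0.09 SE. Fgf22 and Fgf3 changed by 0.06 and −0.01.

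Within the subfamilies of the ligands that rose, none of the related genes passed. As 6.49% of all genes passed, none in so short a list says little. Fgf2, the relative of Fgf1, changed by 0.31 ± 0.08 SE without overlap between the groups, as given above. Fgf9 and Fgf20, the relatives of Fgf16, changed by −0.09 ± 0.13 SE and −0.05 ± 0.07 SE. Fgf8 and Fgf17, the relatives of Fgf18, changed by 0.05 ± 0.13 SE and 0.04 ± 0.07 SE. Fgf4 and Fgf6, the relatives of Fgf5, changed by −0.08 ± 0.07 SE and 0.07 ± 0.05 SE. The adjusted p of the 6 genes other than Fgf2 ran from 0.602 to 0.895, and the differences between relatives were not tested. Fgf20, Fgf8 and Fgf6 had means below the dim mark.

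All 3 endocrine FGF genes had means below the dim mark and none passed, where 1.59% of all genes below the mark did. Fgf21, a hormone of liver and stressed tissues that acts on fat, ranged over 6.45 to 7.12 on the GFP-negative arrays and 6.49 to 6.91 on the GFP-positive arrays. This was a wide spread within each group, and the change of −0.09 ± 0.19 SE lay well inside it (adjusted p = 0.862). Fgf15, the gut hormone of bile acid control, and Fgf23, the bone hormone of phosphate control, changed by −0.04 and −0.18 (adjusted p = 0.79 and 0.338).

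Among the intracellular FGFs, 1 of 4 fell and none rose, where 3.84% of all genes were lower and 2.65% higher. Fgf14, a sodium channel partner best known from neurons, was at 8.03, 7.68 and 7.93 on the GFP-negative arrays and at 7.02, 7.34 and 7.39 on the GFP-positive arrays. GFP-positive replicate 1 was the lowest, and the groups did not overlap. Fgf14 fell 1.55-fold (log2 change −0.63 ± 0.13 SE, adjusted p = 0.0374), and the call held of the arrays left out only without GFP-negative replicate 2, with adjusted p-values of 0.076 to 0.116 without any other. Fgf11 read 8.80, 8.66 and 8.56 against 9.37, 9.00 and 8.97, higher on all GFP-positive arrays. The change, 0.44 ± 0.12 SE, missed the threshold (adjusted p = 0.0997) and passed only with the replicate block (0.0173) among the fits tried. Fgf12 and Fgf13 changed by 0.01 and −0.15 and did not pass (adjusted p = 0.969 and 0.323).

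Of the 4 receptor genes 2 fell and none rose, beside 3.84% of all genes that fell. All 4 had every GFP-positive array below every GFP-negative one, as did 9.78% of all genes. Fgfr3, which restrains the growth of cartilage, showed the largest fall of the FGF genes. It read 9.28, 8.95 and 8.89 on the GFP-negative arrays and 7.45, 7.40 and 7.49 on the GFP-positive arrays. The GFP-positive arrays lay close together, and all were far below the GFP-negative ones. Fgfr3 fell 3.01-fold, from 9.04 ± 0.207 (SD, n = 3) to 7.45 ± 0.0439 (SD, n = 3), a log2 change of −1.59 ± 0.11 SE (adjusted p = 0.000631).

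Fgfr2, the receptor that in its epithelial splice form binds the Fgf7 subfamily and in its mesenchymal form other ligands, fell 2.35-fold. The GFP-negative arrays read 11.59, 11.52 and 11.33, and the GFP-positive arrays 10.25, 10.20 and 10.29. No array of one group came near the other, and the log2 change was −1.24 ± 0.08 SE (adjusted p = 0.000567). The probe set sums over the gene, so the splice forms are not told apart.

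Fgfr4, known from muscle progenitors and liver, read 8.21, 7.86 and 7.84 against 7.45, 7.61 and 7.36, lower on all GFP-positive arrays. A change of −0.50 ± 0.12 SE missed the threshold (adjusted p = 0.061). With the replicate block it was at 0.0469 and with dim genes left out of the table at 0.0434, both past the threshold, and over the arrays left out the adjusted p ran from 0.0862 to 0.20.

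Fgfr1, the main receptor of mesenchyme, did not pass. It read 11.72, 11.74 and 11.67 on the GFP-negative arrays and 11.65, 11.62 and 11.64 on the GFP-positive arrays. The GFP-positive arrays were all slightly lower, by 0.07 ± 0.05 SE on average (change −0.07, 95% interval −0.19 to 0.04, adjusted p = 0.527). Measured against Fgfr1 on the same array, the change of Fgfr2 was −1.16, that of Fgfr3 −1.52 and that of Fgfr4 −0.42 on the log2 scale. These 3 values are given as a description, since 3 arrays against 3 are too few for an exact test of them to pass.

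Of 6 remaining cofactors 1 fell and none rose, where 3.84% of all genes were lower and 2.65% higher. Fgfrl1, a receptor-like protein without a kinase domain, read 11.06, 10.79 and 10.76 against 10.87, 10.65 and 10.54, with overlap (change −0.18 ± 0.11 SE, adjusted p = 0.498). Fgfbp1, which releases FGFs from heparan sulfate, fell 1.21-fold, from 5.58, 5.45 and 5.56 to 5.21, 5.29 and 5.28. All of these values are below the dim mark, so a difference of this size lies among the dimmest genes of the table. Its log2 change was −0.27 ± 0.06 SE (adjusted p = 0.0424). The call ended with the replicate block (0.0544), after quantile normalization (0.0569) and after median centring (0.0903). It also ended without any 1 array other than GFP-negative replicate 2 (up to 0.149). Fgfbp3 changed by −0.12 (adjusted p = 0.658).

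The klotho genes, whose proteins let endocrine FGFs bind their receptors, were dim in each group. Klb, the partner of Fgf21 and Fgf15, changed by −0.26 ± 0.11 SE (adjusted p = 0.293) and was lower on the GFP-positive array in all 3 replicate pairs, and with the replicate block its adjusted p of 0.0406 was past the threshold. Kl changed by −0.23 ± 0.10 SE (adjusted p = 0.311). The adaptor gene Frs3 changed by −0.08 ± 0.06 SE (adjusted p = 0.599).

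**Figure D3:**
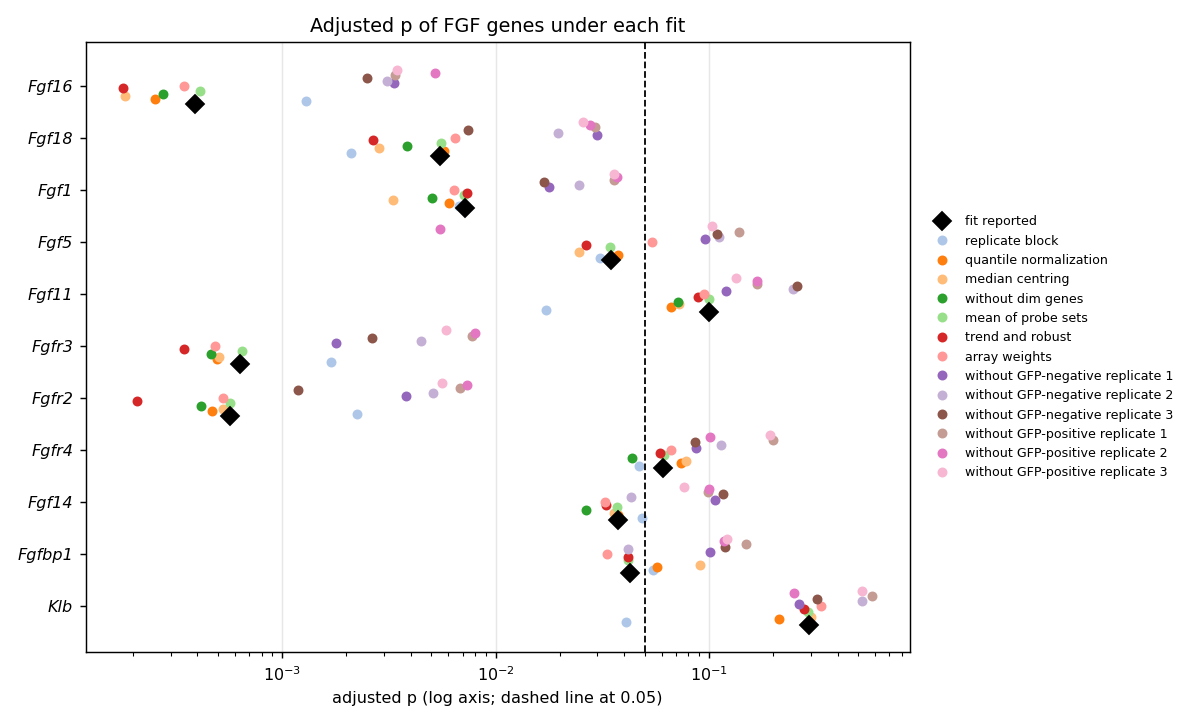
Adjusted p (log axis) of 11 FGF genes in the fit reported and in each other fit, with a dashed line at 0.05. All points of Fgf16, Fgf18, Fgf1, Fgfr3 and Fgfr2 lie left of the line, and those of Fgf5, Fgf14 and Fgfbp1 fall on both sides of it.

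Markers of other cell types moved with the same sort. Of 12 genes of cartilage all 12 fell, where 3.84% of all genes did. Their mean level (log2) ran from 10.40 to 10.56 on the GFP-negative arrays and from 8.79 to 9.11 on the GFP-positive arrays. No cartilage gene had a mean below the dim mark in either group. Fgfr3 and Fgfr2 are expressed in cartilage and its surrounding layer, and the part of such cells in their fall was not tested. Fewer cells of a type and less RNA per cell cannot be told apart in these sorted bulk samples.

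**Figure D4:**
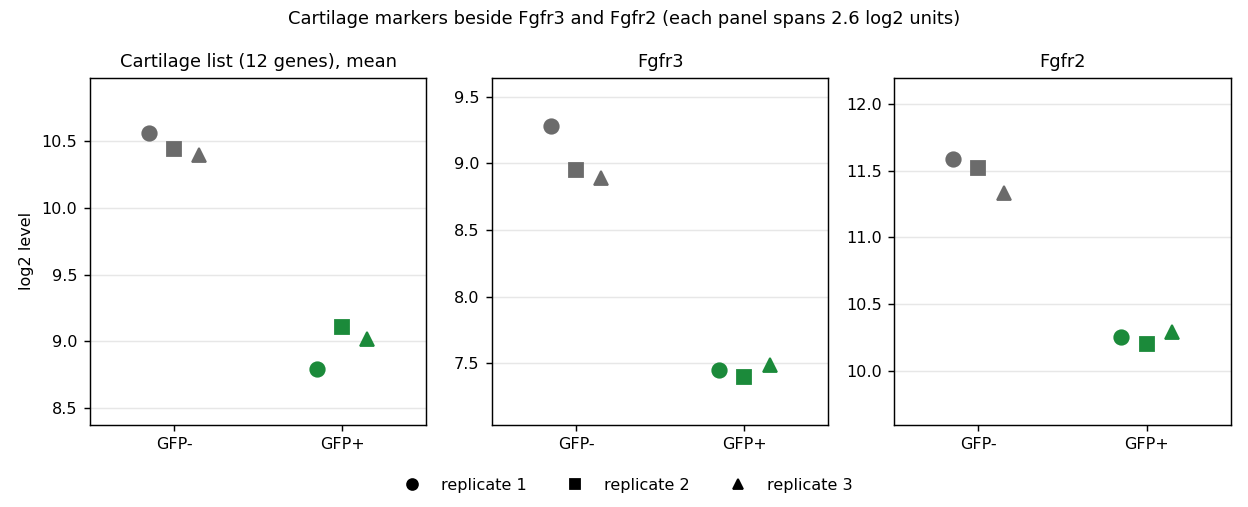
Mean log2 level of the 12 cartilage genes on each array beside the log2 levels of Fgfr3 and Fgfr2, with replicates by symbol and panels of equal span. In each panel the GFP-positive arrays lie below all GFP-negative arrays, and the cartilage list falls from at least 10.40 to at most 9.11.

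Macrophage genes were lower too, with 12 of 12 members passing and list means of 9.09 to 10.04 against 6.95 to 7.89. In GFP-positive cells 4 of them (Fcgr1, Aif1, Ptprc and Itgam) had means below the dim mark. The mean of the Schwann and neural crest list was lower (2 of 5 members passing, 8.65 to 8.99 against 7.98 to 8.24). So were the means of the neuronal list (1 of 6, 7.69 to 7.88 against 7.45 to 7.56) and the mural list (3 of 8, 10.11 to 10.29 against 9.86 to 9.94). The epithelial list ranged over 7.27 to 7.33 and 7.14 to 7.30, with 1 of 6 members lower and overlap between the groups. The skeletal muscle list overlapped (7.54 to 7.80 against 7.73 to 7.99, 1 of 8 higher), as did the endothelial list (8.80 to 9.50 against 8.79 to 9.15, 1 of 8 higher and 1 lower). Beside these counts, 6.49% of all genes passed (2.65% higher and 3.84% lower), so a single call in a list says little about it. The part of these cell types, cartilage among them, in the changes of the FGF genes and of the pathway genes given below was not tested.

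Genes grouped here as FGF response and feedback, many of them feedback inhibitors, were in part higher in GFP-positive cells. Whether FGF signalling lies behind these changes was not tested. Of the 14 genes of the list 7 rose and none fell, where 6.49% of all genes passed, and their median change was 0.30. All 14 lay above the dim mark, where 9.75% of genes passed. Spry4, a Sprouty inhibitor of the RAS cascade, read 10.35, 10.63 and 10.08 against 11.78, 11.74 and 11.38, a 2.43-fold rise (log2 change 1.28 ± 0.16 SE, adjusted p = 0.00708). The groups were far apart, and replicate 3 was the lowest of each. Spry1 rose 1.83-fold (0.87 ± 0.12 SE, adjusted p = 0.00869). Spry3, Spry2 and Spred3 rose by 0.69, 0.46 and 0.66 on the log2 scale (adjusted p = 0.0141, 0.0389 and 0.0465). The calls of Spry2 and Spred3 held of the arrays left out only without GFP-negative replicate 2 (up to 0.149 and 0.171 without another). The remaining genes that rose were Il17rd, a membrane inhibitor of the pathway, at 0.55 (adjusted p = 0.0113), and Etv1, an ETS transcription factor, at 0.37 (adjusted p = 0.0216). The call of Spry4 held whichever array was left out. Those of Spry1, Spry3, Il17rd and Etv1 each ended without at least 1 array (adjusted p up to 0.0503, 0.0606, 0.0574 and 0.0882). The other 7 members did not pass. Dusp6, a phosphatase of ERK that is widely used as a readout of FGF signalling, changed by 0.01 ± 0.17 SE (adjusted p = 0.988), Etv4 by 0.18 and Etv5 by 0.08. With 1 array left out the number that rose was 2 without GFP-positive replicate 1, 3 without GFP-positive replicate 2, 4 without GFP-positive replicate 3 or GFP-negative replicate 3, and 5 without GFP-negative replicate 1 or 2, and the median stayed between 0.27 and 0.36.

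Below the receptors, none of 16 measured genes of the shared cascade passed in limma's fit. All 16 lay above the dim mark, where 9.75% of genes passed, beside 6.49% of all genes. None in a list of 16 is not far from these shares. At an unadjusted p under 0.05 there was 1, and with the replicate block 0 passed, beside 10.0% of all genes. The 16 genes changed by −0.11 to 0.18. They included the adaptor gene Grb2 (−0.09 ± 0.05 SE), the phosphatase gene Ptpn11 (0.05 ± 0.06 SE) and Gab1 (0.17 ± 0.08 SE). The other genes of this list were not analysed here.

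Heparan sulfate, which FGFs need to bind their receptors, is built on core proteins and then sulfated. Of 26 genes of its synthesis and editing, 4 fell and none rose (15.4%, beside 6.49% of all genes and 3.84% of them lower), with a median of 0.04. Of the 26 genes 23 lay above the dim mark, where 9.75% of genes passed. Extl1, a glycosyltransferase gene, read 8.35, 7.94 and 7.88 against 6.69, 6.71 and 6.59 and fell 2.63-fold (−1.39 ± 0.13 SE, adjusted p = 0.00204). Its GFP-positive arrays were all below the dim mark. Xylt1, which starts the sugar chain, fell 1.85-fold (adjusted p = 0.00395), Hs3st3b1 1.41-fold (adjusted p = 0.00371) and Hs3st6 fell by 0.38 on the log2 scale (adjusted p = 0.0494). The call of Hs3st6 held of the arrays left out only without GFP-negative replicate 2 (up to 0.166 without another), and it ended after quantile normalization (0.0621), median centring (0.0603) and trended robust eBayes (0.056). Ndst3, a sulfotransferase gene, read 7.80, 8.24 and 8.87 against 6.73, 6.99 and 7.43, without overlap. Its change of −1.25 ± 0.29 SE missed the threshold (adjusted p = 0.0569) and was past it with the replicate block (0.00228). The same held for Hpse, which encodes the enzyme that cuts heparan sulfate (−0.94 ± 0.23 SE, 0.0693 and 0.00295 with the block), and for Ndst4 (0.35 ± 0.14 SE, 0.249 and 0.026). With the block 1 gene of this list thus passed as higher and 6 as lower, where 10.0% of all genes passed. Ndst1 and Hs3st3a1 were not analysed here.

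Of 13 heparan sulfate core proteins 1 rose and 1 fell (15.4%, beside 6.49% of all genes), with a median of 0.08. Of the 13 genes 12 lay above the dim mark, where 9.75% of genes passed. Syndecan 4, encoded by Sdc4, read 10.07, 10.10 and 10.21 on the GFP-negative arrays and 8.70, 8.80 and 8.72 on the GFP-positive arrays. The arrays of each group lay close together and far from the other group, a 2.61-fold fall (−1.39 ± 0.06 SE, adjusted p = 0.000276). Gpc1, a glypican, rose by 0.37 (adjusted p = 0.0362), a call that held of the arrays left out only without GFP-negative replicate 1 (up to 0.133 without another). With the mean of its probe sets in place of the brightest one, the change of Gpc1 was 0.19 and the call ended (adjusted p = 0.0984). Among 6 cell surface proteins that bind FGF receptors, 1 rose and 1 fell (33.3%, beside 6.49% of all genes). All 6 lay above the dim mark, where 9.75% of genes passed. Cdh2 (N-cadherin) rose 1.78-fold (0.83 ± 0.08 SE, adjusted p = 0.00205). Flrt2 fell 1.33-fold (adjusted p = 0.0234), a call that held of the arrays left out only without GFP-positive replicate 1 (up to 0.0864 without another). Flrt1, a relative of Flrt2, changed by −0.41 ± 0.19 SE (adjusted p = 0.347), was lower on the GFP-positive array in all 3 replicate pairs and passed with the replicate block (0.0362), which gave 2 lower genes in this list.

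**Figure D5:**
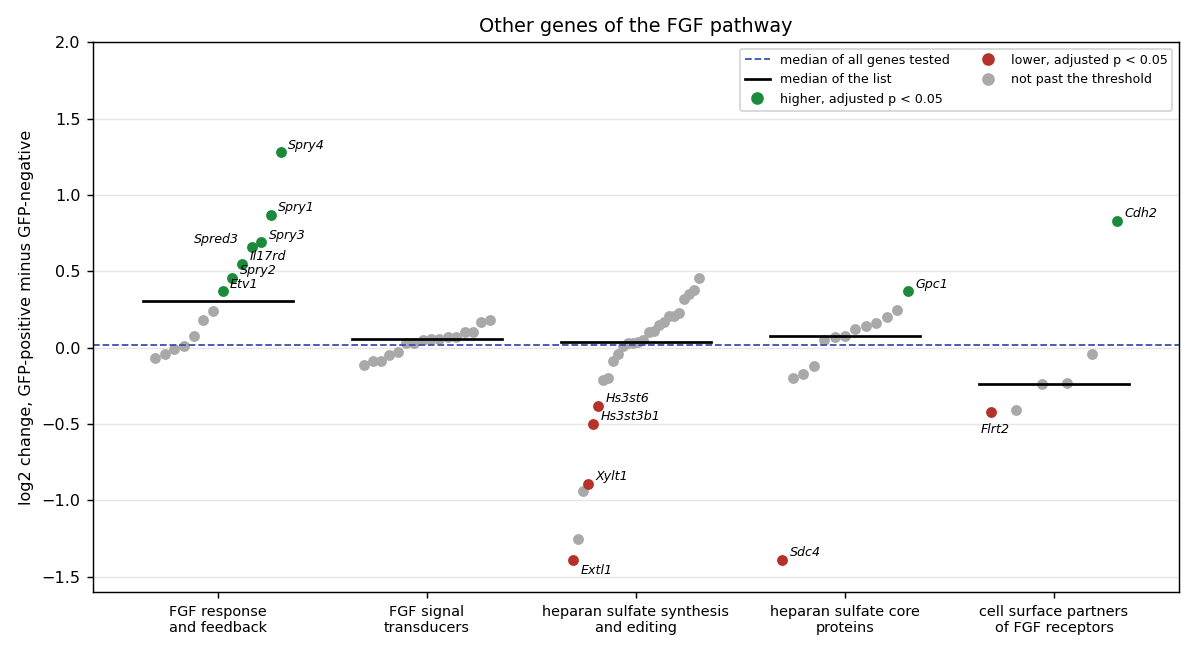
Log2 change of each gene of 5 pathway lists, sorted within its list, with the list's median as a black line and the median of all genes (0.02) as a dashed line. The response and feedback list has 7 genes past the threshold, all higher, with Spry4 at 1.28 on top. The transducer list has none, where 6.49% of all genes passed.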

How the data were processed

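RNA of 6 sorted samples was measured on Affymetrix arrays. The deposited values are log2 expression per probe set, and RMA and limma are named, without versions, in the submitters' processing notes. The log2 scale was read from the values, which run from 3.41 to 14.32 with array medians of 6.657 to 6.712. RMA brings the arrays to a like distribution, which would hide a change common to most genes. The number of arrays limits the precision.

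Of 41345 probe sets, 23521 list 1 gene in the platform table and 23328 of these matched RefSeq (GRCm38.p6) by gene identifier. Probe sets with several genes (1814), with none (15820) and controls (190) were left out, leaving 22180 genes. R 4.3.3 with limma 3.58.1 (lmFit, then eBayes) compared the groups. A mean carries the SD of its 3 arrays, and a change carries limma's moderated standard error (SE). In data simulated from the 22180 genes, a log2 change of 0.5 was recovered for 53.1% of the changed genes, of 1 for 89.9% and of 2 for 99.2%. Of the calls in the simulation, 4.21% were false. The simulation changed far fewer genes than passed here and drew independent noise without an effect shared by replicate numbers. Its rates may therefore differ from those of the real comparison.

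The FGF genes and all lists were chosen with earlier results of these data known. By rule, array values are given for FGF genes that passed, or whose groups did not overlap with a change of at least 0.5 (log2), and up to 6 passing members with the smallest p are named from each pathway list. Array values of other FGF genes (Fgf2, Fgf7, Fgf10, Fgf11, Fgfr1, Fgfr4, whose unrounded change is just under that size, and Fgfrl1), and pathway genes named beyond the rule (Spred3, Dusp6, Etv4, Etv5, Grb2, Ptpn11, Gab1, Ndst3, Ndst4, Hpse and Flrt1), were chosen with their values in view.

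The labels number the replicates alike in each group without saying what a number shares. Arrays with the same number deviated together from their groups (r = 0.408, 0.314 and 0.519 across genes), and arrays with different numbers did not (−0.384 to −0.0243). Deviations cancel out within a group, so the values for different numbers largely follow from the others and are not separate evidence. On these values, not on the labels, the numbers were taken as pairs in an alternative fit, the replicate block. All p-values, SEs and counts given without naming another fit come from a comparison of the groups that ignores the replicate numbers. The blocked fit is printed beside calls that it changes. The other alternatives were quantile normalization, median centring, leaving out dim genes, other handling of probe sets, trended robust eBayes, array weights, a threshold of 0.01 and leaving out each array.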

Additional observations from a re-analysis of the deposited data

How the results depend on the processing

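None of the 8 FGF genes that passed changed direction in any of the 13 other fits that included it. This was largely fixed in advance. The groups of these genes did not overlap, so leaving out 1 array could not turn a sign. Several other fits, such as the replicate block, keep the same change. Of the 8 genes, 5 passed in all of the fits. Fgf5 and Fgfbp1, which are dim, were not part of the fit without dim genes. The replicate block raised the count of all genes passing from 1439 to 2228 and gave 5 higher and 5 lower FGF genes, so that Fgf11, Fgfr4 and Klb passed and Fgfbp1 did not. It changed no other call of an FGF gene. At a threshold of 0.01, 539 genes passed in all, with 2 FGF genes lower and 7 of the pathway list genes in place of 15. With 1 array left out, 629 to 1067 genes passed in all, 2 to 4 FGF genes were lower, 3 to 4 were higher, and 8 to 14 pathway list genes passed.

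Among FGF genes that did not pass, the sign of small changes turned, without a call, for 7 genes. After median centring, Fgf15, Fgf20 and Fgf3 changed by 0.0139, 0.00151 and 0.0487, and after quantile normalization Fgf3 by 0.0146. With array weights Fgf12 changed by −0.0197. With 1 array left out, Fgf12 ranged from −0.0468 to 0.0605, Fgf15 from −0.0708 to 0.00482, Fgf21 from −0.28 to 0.0569, Fgf3 from −0.0187 to 0.00834, Fgf8 from −0.0706 to 0.15 and Fgf9 from −0.20 to 0.0294. The cause was not tested. Median centring moved the median change of all genes from 0.02 to 0.07. Fold changes of genes dim in 1 group may be understated.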
